A study of Mus musculus with 27 samples.

Results

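The TGF-beta genes described here are the 3 ligand genes Tgfb1, Tgfb2 and Tgfb3, the receptor genes Tgfbr1 and Tgfbr2, the latent TGF-beta binding protein genes Ltbp1 and Ltbp2, the TGF-beta induced matrix gene Tgfbi, and Skil, which encodes a repressor of SMAD-driven transcription. They were chosen by gene symbol, with earlier results of these data known. All 9 were found among the 51906 gene symbols of the RNA-seq table and among the 32285 genes of each of 4 single cell matrices. RNA-seq was performed on cultures of mouse hair follicle stem cells (HFSCs), the stem cells that rebuild the hair follicle at each hair cycle, from 2 mice per genotype at postnatal day 55 in telogen, the resting phase. Wild-type cultures and cultures labelled Rxra cKO (Sox9-CreER;Rxra-fl/fl;Rosa26-YFP by the study's methods, a tamoxifen-driven Cre that acts in Sox9-expressing cells) were each grown in serum (FBS) or with all-trans retinoic acid and the protein kinase C inhibitor Go6976 (atRA+PKCi), which gave 4 groups of 2 libraries. The atRA+PKCi medium held the serum-free supplement B-27 in place of serum, with cholesterol-cyclodextrin added, and the ROCK inhibitor Y-27632 was in both media. By the study's methods, serum medium held EGF or FGF10 in the first days of colony growth. The medium effect below thus covers the loss of serum and the gain of B-27, atRA and PKCi, together with any other such difference. Single cell RNA-sequencing was performed on wild-type back skin of 2 mice at postnatal day 32 in full anagen (AnaVI, the growth phase), enriched for CD45-CD31-CD140a-CD117- cells, and on HFSC cultures of 2 wild-type mice in which each medium carried its own hashtag antibody.

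TGF-beta ligands are secreted in a latent complex, in which the mature ligand is held by its own propeptide and by an LTBP that anchors it to the matrix, and integrins or proteases release it. The free ligand binds TGFBR2, which recruits and phosphorylates TGFBR1, and this kinase in turn activates SMAD2 and SMAD3. In skin the pathway is known for growth arrest of keratinocytes, for matrix production and wound repair, and for the ligand from the dermal papilla that helps to start a new hair cycle.

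The genes lie on 8 chromosomes of GRCm38 (GENCODE M21). The ligand genes are Tgfb1 at chr7:25687002-25705077 on the plus strand, Tgfb2 at chr1:186622792-186705989 on the minus strand and Tgfb3 at chr12:86056745-86079041 on the minus strand. The receptor genes are Tgfbr1 at chr4:47353222-47414931 on the plus strand and Tgfbr2 at chr9:116084293-116175360 on the minus strand. Ltbp1 lies at chr17:75005568-75392512 and Ltbp2 at chr12:84783212-84876532, on the plus and minus strand. Tgfbi lies at chr13:56609523-56639562 and Skil at chr3:31095058-31122577, both on the plus strand. Exons of 3 members overlap exons of genes on the opposite strand. These are Gm29491 at Tgfb2 (0 CPM in all 8 libraries), Gm37804 and Gm48008 at Tgfb3 (at most 0.0695 CPM for the first, the second not in the table) and D030025P21Rik at Ltbp2 (0.0341 to 1.48 CPM). Whether the RNA-seq quantification used strand is not given in the sources used here, so reads of these pairs could be shared.

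Sequences upstream of the start sites of Tgfb2, Ltbp1 and Ltbp2 are shown because Tgfb2 moved in opposite directions in the 2 genotypes, Ltbp2 had the largest medium effect among the members, and Ltbp1 was highest in dermal papilla-like cells in vivo. They are RefSeq sequences of GRCm38.p6, read 5′ to 3′ on the strand of the gene and ending at its start site or first exon. They lie at chr1:186705990-186706239 on the minus strand, chr17:75005279-75005528 on the plus strand and chr12:84876533-84876741 on the minus strand.
Tgfb2: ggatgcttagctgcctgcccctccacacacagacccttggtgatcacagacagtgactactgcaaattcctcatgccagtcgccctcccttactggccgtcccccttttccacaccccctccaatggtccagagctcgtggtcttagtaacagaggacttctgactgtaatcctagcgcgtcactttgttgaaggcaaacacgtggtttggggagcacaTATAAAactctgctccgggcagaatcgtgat
Ltbp1: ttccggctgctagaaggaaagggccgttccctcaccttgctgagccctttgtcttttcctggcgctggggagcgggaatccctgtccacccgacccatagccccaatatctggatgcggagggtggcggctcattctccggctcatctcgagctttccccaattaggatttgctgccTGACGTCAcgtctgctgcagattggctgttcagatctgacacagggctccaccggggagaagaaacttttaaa
Ltbp2: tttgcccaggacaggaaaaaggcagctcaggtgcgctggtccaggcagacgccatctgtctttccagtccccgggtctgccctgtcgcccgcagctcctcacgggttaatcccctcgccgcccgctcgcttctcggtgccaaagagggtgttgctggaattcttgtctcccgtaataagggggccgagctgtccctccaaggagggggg
Capitals mark a TATA box (TATAAA) at -31 from the start site in Tgfb2 and a cAMP response element (TGACGTCA) at -73 in Ltbp1. Both motifs were searched after the sequences had been seen, on both strands of the windows from 250 bases upstream to 50 bases downstream of each start site. They are held by 13.6% and 1.79% of 32851 such windows. The palindromic SMAD-binding element GTCTAGAC (0.213% of windows), the AP-1 element TGANTCA (7.81%) and the retinoid half-site AGGTCA (16.3%) were in none of the 9 windows of the 7 members with an entry. No motif searched contains another. Of the bases shown for Tgfb2, 167 lie in annotated exons of Gm29491 on the opposite strand, and those shown for Ltbp2 all lie in exons of D030025P21Rik, also on the opposite strand.

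Sequencing depth was 25150265 to 35879777 estimated counts per RNA-seq library. Values below are CPM, reads scaled to a common library size with TMM factors, given for replicates 1 and 2 in turn, and tests are edgeR's quasi-likelihood tests over 15965 genes with Benjamini-Hochberg adjustment, two-sided, called at adjusted p under 0.05. The labels give libraries of one number within a genotype the same mouse (mouse 1 or mouse 2), so p-values measure the spread between cultures of 2 mice. The deleted gene Rxra stood at 149.4 and 122.2 CPM in wild-type FBS, 147.4 and 143.2 CPM in wild-type atRA+PKCi, 97.2 and 95.7 CPM in FBS libraries labelled Rxra cKO, and 147.7 and 145.4 CPM in atRA+PKCi libraries labelled Rxra cKO. It was lower with the cKO label in FBS (log2 fold change -0.49, adjusted p = 0.00264 by edgeR) and not in atRA+PKCi. Counts over the whole gene do not test the removal of a floxed exon, so directions by genotype below rest on the labels. Keratinocyte markers (Krt5, Krt14, Trp63 and Col17a1) summed to 35962 and 36638 CPM in wild-type FBS, 16929 and 16993 CPM in wild-type atRA+PKCi, 22617 and 24643 CPM in Rxra cKO FBS and 25561 and 25492 CPM in Rxra cKO atRA+PKCi. Krt17, a keratin known from activated and follicular keratinocytes, was at 48.3 to 95.2 CPM in wild-type and 1460 to 1983 CPM in Rxra cKO libraries. Of markers of HFSCs, Sox9 stood at 70.1 to 173.0 CPM, Cd34 at 0.385 to 2.91 CPM and Lgr5 at 0 to 0.186 CPM. Krt15 moved with the medium, at 3.65 and 4.75 CPM in wild-type FBS, 4576 and 4430 CPM in wild-type atRA+PKCi, 6.51 and 8.23 CPM in Rxra cKO FBS and 251.3 and 245.4 CPM in Rxra cKO atRA+PKCi, and the part of these keratins in the results below was not tested. The lines had been started on inactivated feeder cells. Summed markers of other cells were low, with 6.45 to 15.3 CPM for fibroblasts (10 genes, Lum at 0 in all libraries), 1.83 to 5.26 CPM for endothelium (6 genes, Cldn5 at 0), 0.146 to 1.89 CPM for immune cells (7 genes, Cd3e at 0) and 0.348 to 0.770 CPM for melanocytes (5 genes).

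Replacing serum by atRA+PKCi moved most of the TGF-beta genes in both genotypes. In bulk libraries, fewer cells that express a gene and less RNA per cell cannot be told apart. In wild-type cells, 8 of 9 members passed the test, 2 higher (Tgfb3 and Ltbp2) and 6 lower, against 53.9% of all genes tested (27.2% higher and 26.6% lower). In Rxra cKO cells all 9 passed, 4 higher and 5 lower, against 43.0% of all genes (20.8% higher and 22.2% lower). The median log2 fold change of the members was -0.45 in wild-type and -0.31 in Rxra cKO, and that of all genes was 0.03 and 0.02. Because the members were chosen with earlier results of these data known, these shares are a description and carry no test.

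**Figure D1:**
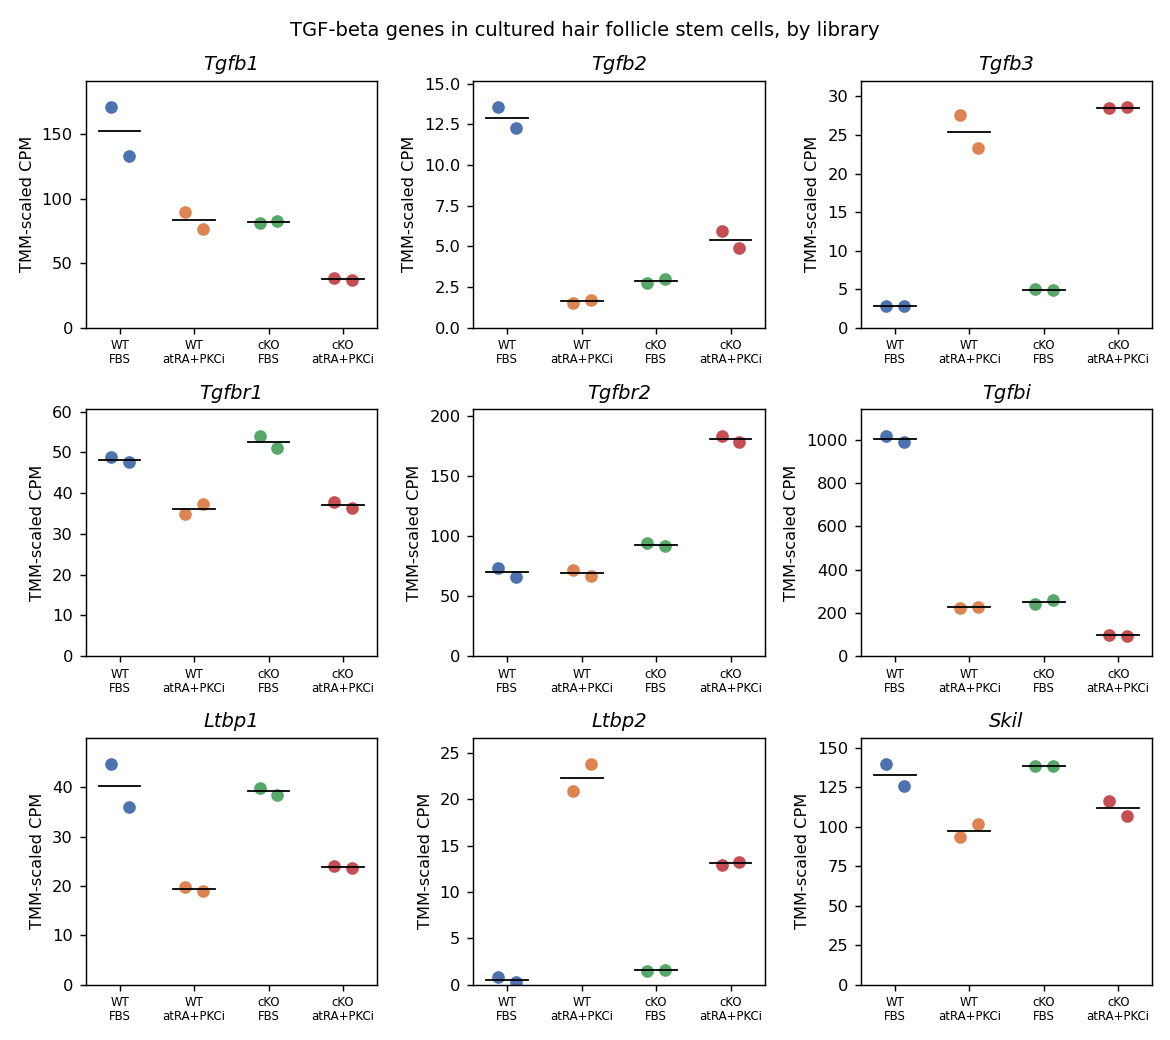
Expression of the 9 TGF-beta genes in each RNA-seq library (y axis, TMM-scaled CPM) for wild-type (WT) and Rxra cKO (cKO) HFSCs in FBS or atRA+PKCi. Points are libraries (2 per group) and lines are group means. Tgfb2 is highest in wild-type FBS (12.3 and 13.5 CPM), while Tgfb3 and Ltbp2 are high in both atRA+PKCi groups.

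Among the ligands, Tgfb1, which encodes the ligand best known from platelets and immune cells, was the most abundant in FBS. Its level was 171.0 and 133.7 CPM in wild-type FBS, 90.1 and 76.8 CPM in wild-type atRA+PKCi, 81.1 and 82.5 CPM in Rxra cKO FBS and 38.8 and 37.4 CPM in Rxra cKO atRA+PKCi. The libraries did not overlap between media within a genotype or between genotypes within a medium. The medium lowered Tgfb1 in wild-type by a log2 fold change of -0.87 (SE 0.118, adjusted p = 0.000304 by edgeR) and in Rxra cKO by -1.10 (SE 0.122, adjusted p = 0.000141 by edgeR). Rxra cKO cells had less of it in FBS (log2 fold change -0.90, SE 0.119) and in atRA+PKCi (-1.13, SE 0.122). The medium effects of the genotypes differed by -0.23 (SE 0.169, adjusted p = 0.361 by edgeR), which did not pass.

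Tgfb2, which encodes the ligand known from the dermal papilla and from epithelial development, moved in opposite directions in the 2 genotypes. It was at 13.5 and 12.3 CPM in wild-type FBS and at 1.54 and 1.71 CPM in wild-type atRA+PKCi, a fall to 0.126-fold (log2 fold change -2.99, SE 0.168, adjusted p = 1.21e-06 by edgeR). In Rxra cKO it was at 2.73 and 2.98 CPM in FBS and at 5.92 and 4.88 CPM in atRA+PKCi, a rise of 1.89-fold (log2 0.92, SE 0.160, adjusted p = 0.00185 by edgeR). The wild-type groups thus enclosed both Rxra cKO groups, with the wild-type FBS libraries highest and the wild-type atRA+PKCi libraries lowest. The difference between the medium effects was 3.91 on the log2 scale (SE 0.231, adjusted p = 1.27e-05 by edgeR). Compared with wild-type, Rxra cKO cells had less Tgfb2 in FBS (log2 fold change -2.17) and more in atRA+PKCi (1.73).

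Tgfb3, which encodes the ligand known from palate fusion and from scar-poor healing, rose in both genotypes. It was at 2.77 and 2.82 CPM in wild-type FBS and at 27.6 and 23.3 CPM in wild-type atRA+PKCi, 9.07-fold higher (log2 fold change 3.18, SE 0.119, adjusted p = 9.99e-08 by edgeR). In Rxra cKO it was at 4.96 and 4.83 CPM in FBS and at 28.5 and 28.6 CPM in atRA+PKCi, 5.83-fold higher (log2 2.54, SE 0.110, adjusted p = 7.57e-07 by edgeR). The difference between genotypes did not pass in atRA+PKCi (log2 fold change 0.17, SE 0.0971, adjusted p = 0.198 by edgeR), and in FBS Rxra cKO cells had more (0.81, SE 0.129). The rise was smaller in Rxra cKO by -0.64 on the log2 scale (SE 0.161, adjusted p = 0.0211 by edgeR). This difference did not pass with DESeq2 (adjusted p = 0.0879) or with any of 5 libraries left out, namely wild-type FBS replicate 1, wild-type atRA+PKCi replicate 1, Rxra cKO FBS replicate 1 and either Rxra cKO atRA+PKCi library (adjusted p = 0.0512 to 0.0939).

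Counted per kilobase of exon, the make-up of the ligand transcripts shifted with the medium. In wild-type FBS the levels were 30.2 ± 5.23 CPM per kb for Tgfb1, 2.23 ± 0.153 for Tgfb2 and 0.827 ± 0.00963 for Tgfb3 (SD, n = 2). In wild-type atRA+PKCi they were 16.5 ± 1.86 for Tgfb1, 0.281 ± 0.0209 for Tgfb2 and 7.51 ± 0.898 for Tgfb3. Tgfb1 thus made up 91.5% and 89.97% of the summed ligand level in wild-type FBS and 68.0% and 68.0% in wild-type atRA+PKCi. Tgfb3 went from 2.21% and 2.83% to 31.0% and 30.7%. In Rxra cKO the share of Tgfb3 was 8.14% and 7.79% in FBS and 49.1% and 50.6% in atRA+PKCi, where it matched or passed that of Tgfb1 (44.9% and 44.4%). The share of Tgfb2 was at most 7.20% in any library. These shares rest on annotated exon lengths (5042 bases for Tgfb1 and 3383 for Tgfb3) and were not tested. Without division by length, Tgfb1 stayed above Tgfb3 in Rxra cKO atRA+PKCi (38.8 and 37.4 against 28.5 and 28.6 CPM). The order of these ligands in that group thus turns on the lengths used.

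Of the receptor genes, Tgfbr1 changed little and Tgfbr2 rose only in libraries labelled Rxra cKO. Tgfbr1, which encodes the type I receptor kinase, was at 48.8 and 47.7 CPM in wild-type FBS, 35.0 and 37.4 CPM in wild-type atRA+PKCi, 54.1 and 51.0 CPM in Rxra cKO FBS and 37.9 and 36.2 CPM in Rxra cKO atRA+PKCi. It fell in atRA+PKCi by 0.42 in wild-type on the log2 scale (SE 0.0707) and by 0.50 in Rxra cKO (SE 0.0703), and the difference between genotypes passed neither in FBS (0.12, SE 0.0700, adjusted p = 0.197 by edgeR) nor in atRA+PKCi (0.04, SE 0.0708, adjusted p = 0.704 by edgeR). Tgfbr2, which encodes the type II receptor that binds the ligand first, was at 73.7 and 66.4 CPM in wild-type FBS and at 71.8 and 67.1 CPM in wild-type atRA+PKCi, and these libraries overlapped. In Rxra cKO it was at 94.2 and 91.6 CPM in FBS and at 183.7 and 178.4 CPM in atRA+PKCi, 1.95-fold higher (log2 fold change 0.96, SE 0.0725, adjusted p = 1.46e-05 by edgeR). The wild-type medium effect was -0.01 (SE 0.0735, adjusted p = 0.912 by edgeR), and the difference of the medium effects was 0.97 (SE 0.103, adjusted p = 0.000287 by edgeR). In atRA+PKCi, Tgfbr2 was 2.61-fold higher in Rxra cKO than in wild-type.

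The latent binding protein genes moved in opposite directions. Ltbp1, whose product tethers latent TGF-beta to fibrillin fibers, fell from 44.6 and 36.0 CPM in wild-type FBS to 19.8 and 18.9 CPM in wild-type atRA+PKCi, and from 39.8 and 38.4 CPM in Rxra cKO FBS to 24.1 and 23.7 CPM in Rxra cKO atRA+PKCi. The log2 fold changes were -1.06 in wild-type (SE 0.103) and -0.71 in Rxra cKO (SE 0.102). In atRA+PKCi it was higher in Rxra cKO by 0.30 (SE 0.104, adjusted p = 0.0442 by edgeR), a call that DESeq2 did not make (adjusted p = 0.0570) and that was lost without any one of 5 libraries, the 4 atRA+PKCi libraries or Rxra cKO FBS replicate 2 (adjusted p = 0.0649 to 0.179). The medium effects differed by 0.35 (SE 0.144, adjusted p = 0.119 by edgeR), and leaving out wild-type FBS replicate 2 gave a call (adjusted p = 0.00845).

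Ltbp2, whose product binds fibrillin and elastic fibers and, unlike LTBP1, is not known to bind latent TGF-beta itself, had the largest medium effect of the members. It was at 0.766 and 0.232 CPM in wild-type FBS, from 21 and 6 estimated counts, and at 20.9 and 23.8 CPM in wild-type atRA+PKCi. Its Rxra cKO level was 1.51 and 1.62 CPM in FBS and 12.9 and 13.3 CPM in atRA+PKCi. The libraries of the 4 groups did not overlap, and the order from low to high was wild-type FBS, Rxra cKO FBS, Rxra cKO atRA+PKCi and wild-type atRA+PKCi. The log2 fold change with medium was 5.46 in wild-type (SE 0.294, adjusted p = 9.30e-07 by edgeR) and 3.06 in Rxra cKO (SE 0.247, adjusted p = 2.23e-05 by edgeR), and the difference was -2.40 (SE 0.411, adjusted p = 0.00343 by edgeR). With so few counts in wild-type FBS, the wild-type change was 6.56 without replicate 1 of that group and 4.85 without replicate 2, and the difference between genotypes was -3.51 and -1.80. Limma, run on the normalized values, did not call the difference (adjusted p = 0.0525 and 0.0575 with a pseudocount of 1 and 0.5). In atRA+PKCi, Ltbp2 was lower in Rxra cKO by -0.77 (SE 0.202, adjusted p = 0.0137 by edgeR), which limma did not call (adjusted p = 0.369 and 0.389) and which was lost without wild-type atRA+PKCi replicate 2 or either Rxra cKO atRA+PKCi library (adjusted p = 0.0708 to 0.107).

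**Figure D2:**
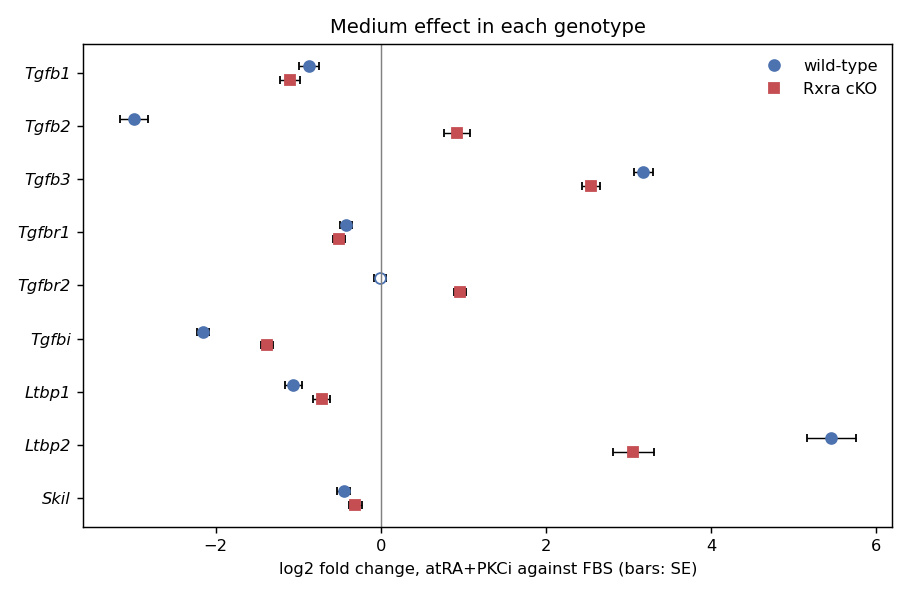
Log2 fold change of atRA+PKCi against FBS (x axis) for the 9 TGF-beta genes in wild-type (circles) and Rxra cKO (squares), with the standard error from edgeR as bars and open symbols where adjusted p was 0.05 or more. Tgfb2 lies on opposite sides of 0 in the genotypes (-2.99 and 0.92), and Tgfbr2 is near 0 in wild-type (-0.01) and at 0.96 in Rxra cKO.

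Tgfbi, which encodes a matrix protein named for its induction by TGF-beta and which binds integrins, was the most abundant member. Its level per length in wild-type FBS was 266.0 ± 5.496 CPM per kb (SD, n = 2), above Tgfb1 at 30.2 and Skil at 13.7 ± 0.978. It was at 1018 and 988 CPM in wild-type FBS, 223.1 and 229.2 CPM in wild-type atRA+PKCi, 240.8 and 257.7 CPM in Rxra cKO FBS and 98.6 and 93.7 CPM in Rxra cKO atRA+PKCi. Wild-type FBS libraries were thus far above the other 6, and Rxra cKO atRA+PKCi libraries lowest. Tgfbi fell with the medium by 2.15 in wild-type on the log2 scale (SE 0.0724, adjusted p = 5.81e-08 by edgeR) and by 1.37 in Rxra cKO (SE 0.0716, adjusted p = 1.87e-06 by edgeR), and the difference was 0.77 (SE 0.0992, adjusted p = 0.000763 by edgeR). It was lower in Rxra cKO in both media, with log2 fold changes of -2.01 in FBS and -1.23 in atRA+PKCi.

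Skil, which encodes SnoN, a repressor of SMAD targets that TGF-beta signaling both degrades and re-induces, moved little. It was at 139.5 and 126.1 CPM in wild-type FBS, 93.5 and 101.6 CPM in wild-type atRA+PKCi, 138.2 and 138.4 CPM in Rxra cKO FBS and 116.6 and 106.8 CPM in Rxra cKO atRA+PKCi. It fell in wild-type by 0.45 (SE 0.0795, adjusted p = 0.00145 by edgeR) and in Rxra cKO by 0.31 (SE 0.0791, adjusted p = 0.0132 by edgeR). The call in Rxra cKO was lost without either Rxra cKO FBS library or without Rxra cKO atRA+PKCi replicate 2 (adjusted p = 0.0576 to 0.121).

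Between genotypes, 6 of 9 members passed the test in FBS (3 higher and 3 lower in Rxra cKO, against 42.8% of all genes, 22.3% higher and 20.5% lower) and 6 in atRA+PKCi (3 higher and 3 lower, against 43.2%, 23.0% higher and 20.2% lower). Tgfb1 and Tgfbi were lower in Rxra cKO in both media and Tgfbr2 was higher in both. Tgfb2 and Ltbp2 changed sign, with Tgfb2 lower in FBS and higher in atRA+PKCi, and Ltbp2 higher in FBS (log2 fold change 1.62, SE 0.360, but 2.74 and 1.03 without wild-type FBS replicates 1 and 2, which held 21 and 6 counts) and lower in atRA+PKCi. Tgfb3 was called only in FBS and Ltbp1 only in atRA+PKCi. The medium effects of the genotypes differed for 5 members, 3 with a higher value in Rxra cKO (Tgfb2, Tgfbr2 and Tgfbi) and 2 with a lower one (Tgfb3 and Ltbp2), against 24.6% of all genes tested (13.3% higher and 11.3% lower). The comparisons share groups, so these counts are not independent of each other.

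Other genes of the pathway were taken from lists by role, and their counts stand against 27.2% of all genes higher and 26.6% lower in wild-type, and 20.8% and 22.2% in Rxra cKO. Of 13 genes for latency and activation, 5 rose, 5 fell and 3 did not pass in wild-type atRA+PKCi, and 6 rose, 4 fell and 3 did not pass in Rxra cKO. Itgb8, the beta subunit of an integrin that activates latent TGF-beta, rose most, with log2 fold changes of 7.06 in wild-type (SE 0.331, 5.89 to 7.63 over 17 settings) and 4.72 in Rxra cKO (SE 0.220). The wild-type FBS libraries held 1 and 2 counts of it (0.0365 and 0.0773 CPM), against 7.89 and 8.24 CPM in atRA+PKCi, a ratio of 143.2 with an exact 95% counting interval of 48.7 to 696.7. Itgb6, the beta subunit of another such integrin in epithelia, fell by 1.64 in wild-type (SE 0.0729), and Furin, the protease that cleaves the propeptide, fell by 1.00 in Rxra cKO (SE 0.121). The median log2 fold change of this list was -0.60 in wild-type and 0.37 in Rxra cKO (all genes 0.03 and 0.02). Of 5 genes in the co-receptor list, which also held the type I receptor gene Acvrl1, Tgfbr3 (betaglycan) rose in both genotypes (log2 fold change 1.81 in wild-type, SE 0.126, and 1.31 in Rxra cKO, SE 0.122). Cd109, which encodes a co-receptor known to dampen signaling in keratinocytes, fell in both (-0.95, SE 0.0997, and -0.47, SE 0.102), the second not passing without Rxra cKO atRA+PKCi replicate 2 (adjusted p = 0.0524). One more of this list fell in wild-type, and 2 and 3 did not pass.

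In the activin arm, which signals through the same SMAD2 and SMAD3, 3 of 8 genes rose and 4 fell in wild-type, and 3 rose and 2 fell in Rxra cKO. The receptor gene Acvr2b rose by 1.03 in wild-type (SE 0.269) and by 0.91 in Rxra cKO (SE 0.290, adjusted p = 0.0329 by edgeR), and the second of these did not pass with the mouse as a replicate block (adjusted p = 0.0587), with DESeq2 (adjusted p = 0.0994) or without any one Rxra cKO library (adjusted p = 0.0856 to 0.133). The wild-type rise was lost when replicate 2 of wild-type FBS (adjusted p = 0.0592) or of wild-type atRA+PKCi (adjusted p = 0.0912) was left out. The activin antagonist gene Fstl3 fell by 1.69 in wild-type (SE 0.125), and the activin subunit gene Inhba fell by 0.77 in Rxra cKO (SE 0.063). Of 12 SMAD and regulator genes, 2 rose and 7 fell in wild-type, and 1 rose and 6 fell in Rxra cKO. Smad7, the inhibitory SMAD that TGF-beta itself induces, fell by 1.94 in wild-type (SE 0.117) and by 1.46 in Rxra cKO (SE 0.118). Tgif2, a SMAD corepressor gene, rose by 0.95 (SE 0.0909) and 0.83 (SE 0.100). The median log2 fold change of this list was -0.25 in wild-type and -0.21 in Rxra cKO (all genes 0.03 and 0.02).

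Known TGF-beta targets did not move as a block. Of 17 genes listed, 16 were tested (Tagln was too low). In wild-type, 4 rose and 8 fell, with Ctgf (now Ccn2, a matricellular protein gene) at a log2 fold change of 1.51 (SE 0.112). In Rxra cKO, 5 rose and 3 fell, with Cyr61 (now Ccn1) at 1.93 (SE 0.0972) and Timp1 (a metalloproteinase inhibitor gene) at -3.64 (SE 0.152). The medium effects differed for 11 targets, 9 with a higher value in Rxra cKO and 2 with a lower one (24.6% of all genes, 13.3% higher and 11.3% lower). Fn1 (fibronectin) had the largest positive difference among these at 1.87 (SE 0.253) and Ctgf the largest negative one at -1.53 (SE 0.153). The median difference over the targets was 0.68, against -0.01 over all genes. Of the genes for latency and activation, 4 had a higher and 3 a lower medium effect in Rxra cKO, from Lrrc32 at 1.72 (SE 0.154) to Itgb8 at -2.34 (SE 0.536, adjusted p = 0.0137 by edgeR, not called by limma at adjusted p = 0.113 and 0.137). The difference for Itgb8 was also lost when replicate 1 of wild-type FBS (adjusted p = 0.0758) or replicate 2 of Rxra cKO FBS (adjusted p = 0.0700) was left out.

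**Figure D3:**
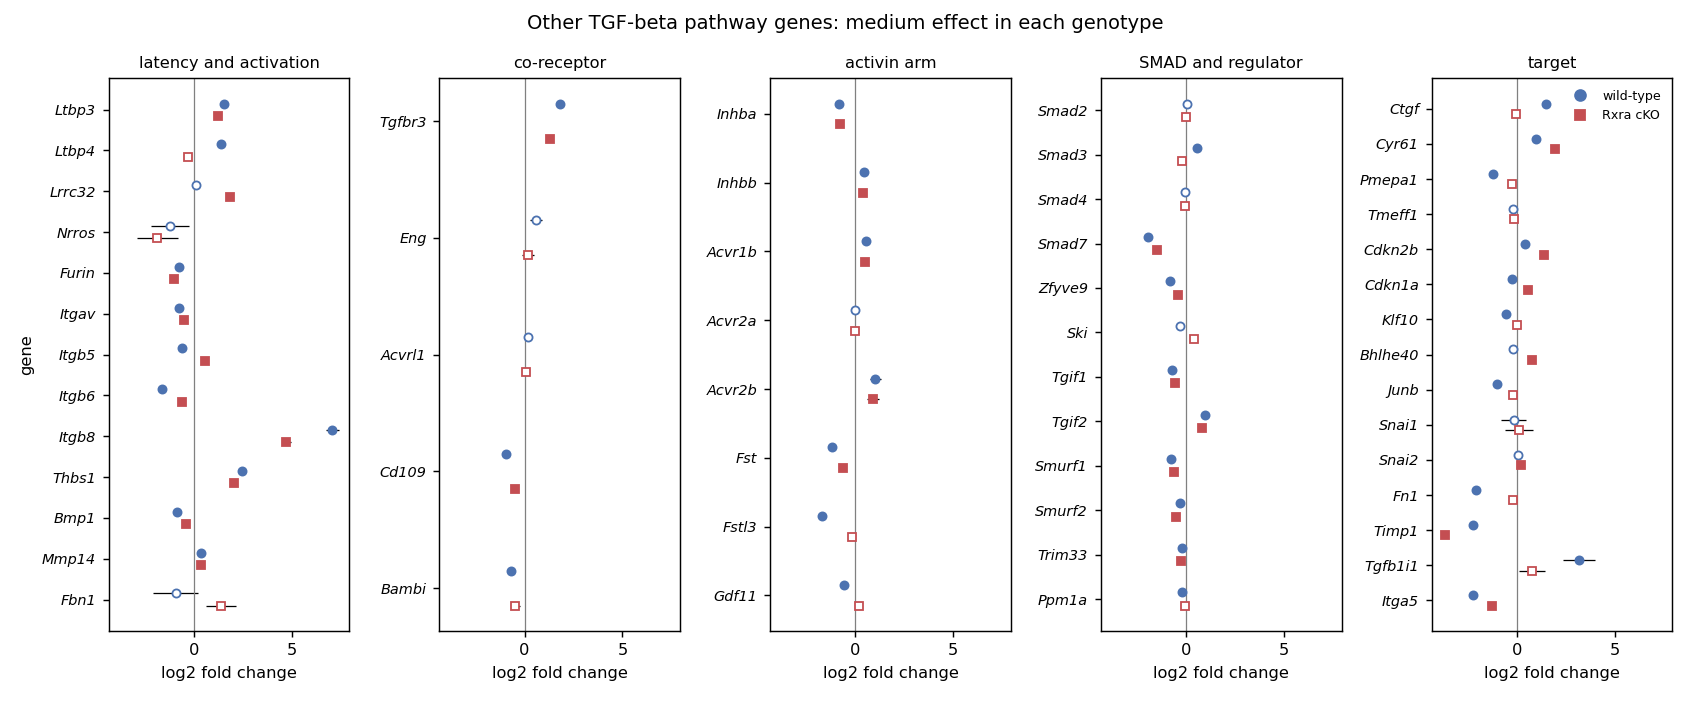
Log2 fold change of atRA+PKCi against FBS (x axis) for other TGF-beta pathway genes by role (1 tested target is not drawn), in wild-type (circles) and Rxra cKO (squares), with standard errors as bars and open symbols where adjusted p was 0.05 or more. Itgb8 lies farthest to the right (7.06 and 4.72), and targets are spread on both sides of 0.

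Between genotypes in FBS, 5 of 12 SMAD and regulator genes and 7 of 16 targets were lower in Rxra cKO, and 1 and 2 were higher (20.5% of all genes lower, 22.3% higher). Fn1 was lowest among the targets (log2 fold change -2.54, SE 0.177) and Ctgf highest (1.73, SE 0.112), and Tgif2 stood at -1.48 (SE 0.0992). In atRA+PKCi, 8 of 13 genes for latency and activation were higher in Rxra cKO and 3 lower (23.0% and 20.2% of all genes), with Itgb6 at 2.22 (SE 0.0724) and Ltbp4, a further latent binding protein gene, at -2.20 (SE 0.145). Acvrl1, a type I receptor gene placed in the co-receptor list, was higher in Rxra cKO in FBS (1.78, SE 0.156) and in atRA+PKCi (1.69, SE 0.152). Bambi, which is on the same list and encodes a pseudoreceptor, was lower in both (-1.14, SE 0.218, and -0.93, SE 0.224). The second of these calls was lost with DESeq2 (adjusted p = 0.0511), without replicate 2 of wild-type atRA+PKCi (adjusted p = 0.0649) and without either Rxra cKO atRA+PKCi library (adjusted p = 0.0545 and 0.0607). The activin-binding protein gene Fst was higher in both (0.69, SE 0.0728, and 1.24, SE 0.0749).

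In cultured single cells, no member passed the test between media. Cells came from 449 and 208 barcodes of mouse 1 and mouse 2, which shared 0 barcodes, and 222 and 78 cells with a single hashtag were kept. UMIs were summed per mouse and medium where at least 5 cells were left. This gave B-27 (5 and 10 cells), R-spondin (Rspo, 5 and 6), BMP2/4 (113 and 13), Rspo+BMP2/4 (92 and 27) and Rspo+BMP2/4 with an inhibitor of the retinoic acid receptor (RARi, 5 and 21). FBS had 0 cells and atRA+PKCi 2 and 1, so the comparison of the RNA-seq libraries was not available in single cells. All media but FBS and B-27 held atRA+PKCi, so that BMP2/4 against B-27 also covers these. A call needed an adjusted p below 0.01 and a log2 fold change beyond 1 or -1, among 6265 genes that passed the filter, 8 members with them. BMP2/4 against B-27 called 0 of 8 members (3 with an unadjusted p under 0.05, and 0 called by DESeq2), against 5.71% of all genes (0.431% higher and 5.28% lower). The other 2 comparisons called 0 members and 0% of all genes, with 0 members at an unadjusted p under 0.05 for Rspo+BMP2/4 against BMP2/4 and 1 for RARi against none.

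Skil was nearest to a call. Its level was 37.0 and 9.10 CPM from 7 and 2 UMIs in B-27, 36.5 and 20.6 CPM in Rspo, 100.4 and 111.6 CPM in BMP2/4, 109.4 and 175.6 CPM in Rspo+BMP2/4 and 301.6 and 88.0 CPM with RARi. Both mice were higher in BMP2/4 than in B-27, with a log2 fold change of 2.36 (SE 0.639, adjusted p = 0.0201 by edgeR). It passed without a filter on low counts (adjusted p = 0.00498) and with cells of up to 20% mitochondrial UMIs (adjusted p = 0.00173), and without either RARi sum (adjusted p = 0.00197 and 0.00224). Without B-27 replicate 2 or BMP2/4 replicate 1 its adjusted p was 0.238 and 0.104. Tgfb3 was counted with 0 and 1 UMIs in B-27 and was at 25.4 and 23.5 CPM in BMP2/4 (94 and 12 UMIs), with adjusted p = 0.0817 by edgeR. Tgfbr1 was at 100.6 and 36.4 CPM in B-27 and at 24.1 and 23.5 CPM in BMP2/4 (log2 fold change -1.33, SE 0.542, adjusted p = 0.130 by edgeR). Tgfbr2 was at 38.0 and 26.7 CPM in Rspo+BMP2/4 and at 72.8 and 78.0 CPM with RARi, where both mice were higher (log2 fold change 1.03, SE 0.429, adjusted p = 0.959 by edgeR).

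The remaining members were called in no comparison of media. Tgfb1 lay between 31.8 and 129.4 CPM over the 10 sums, Tgfb2 between 7.30 and 72.8 CPM, and Tgfbi between 7.30 and 239.2 CPM. Ltbp1 ranged up to 94.8 CPM and had 0 UMIs in the Rspo sum of mouse 2, which allows up to 20.6 CPM. Ltbp2 was too low to be tested and had 31 and 1 UMIs in BMP2/4 (8.39 and 1.96 CPM) and 0 in B-27. In the 2 atRA+PKCi cells of mouse 1, Ltbp1 was counted with 22 UMIs and Tgfb2 with 12, and in the single cell of mouse 2 with 3 and 0.

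Of the other pathway genes, 5 rose in BMP2/4 against B-27 and none fell, namely Ccn1 (log2 fold change 4.81, SE 1.08), Ccn2 (3.76, SE 0.890), Smad7 (2.83, SE 0.595), Pmepa1 (2.80, SE 0.680) and Itgb6 (2.39, SE 0.561). The lists had 9 latency and activation genes, 0 genes of the co-receptor list, 4 activin genes, 11 SMAD and regulator genes and 11 targets tested. Of all genes tested in this comparison, 0.431% were called higher and 5.28% lower. Pmepa1 encodes a membrane adaptor that TGF-beta induces and that limits SMAD activation. BMP2/4 and atRA+PKCi were themselves added in this comparison, and whether these or TGF-beta raised the 5 genes was not tested. With 5 and 10 cells in B-27, these calls did not stand without B-27 replicate 1 or 2 (adjusted p = 0.0339 to 0.184), where the log2 fold change of Ccn1 became 3.89 and 9.02, nor without BMP2/4 replicate 1 (adjusted p = 0.0415 to 0.129). Some were also lost without BMP2/4 replicate 2 or an Rspo+BMP2/4 sum. Those of Ccn1 and Ccn2 were not made by DESeq2 (adjusted p = 0.0291 and 0.0312).

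**Figure D4:**
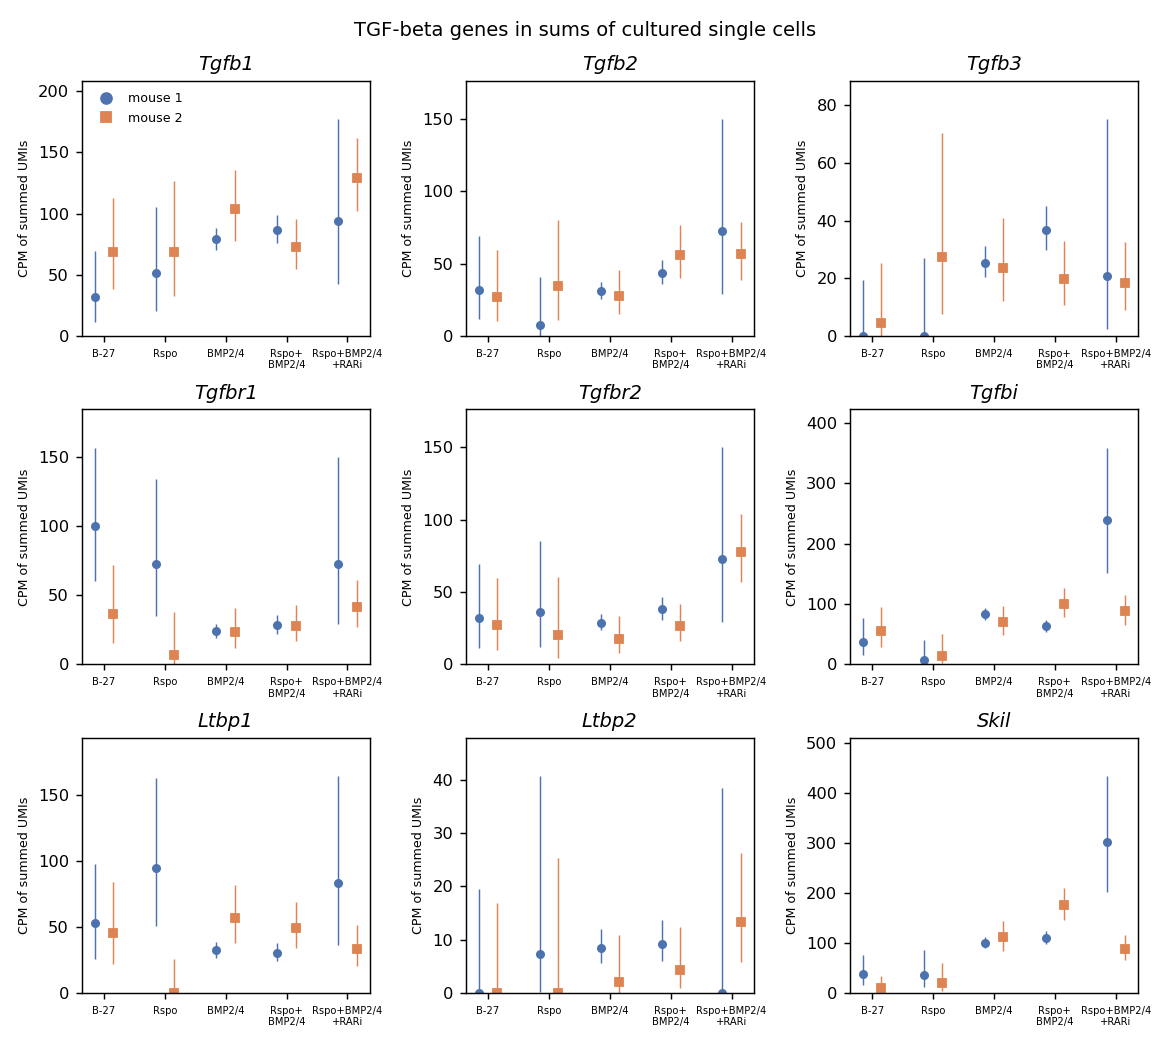
CPM of summed UMIs (y axis) for the 9 TGF-beta genes in 5 culture media, for mouse 1 (circles) and mouse 2 (squares), with exact Poisson 95% intervals as bars, which cover counting error only. Skil is at 37.0 and 9.10 CPM in B-27 and at 100.4 and 111.6 CPM in BMP2/4, and the intervals of sums with 5 to 10 cells are wide.

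In back skin at AnaVI, the members were spread over different compartments. The matrices held 16521 and 16068 barcodes for mouse 1 and mouse 2, of which 62 were shared, and 13625 and 13608 cells were used after filters and removal of called doublets, with medians of 8671 and 10463.5 UMIs. Clusters were named from marker lists, and those without a clear name are called by their leading genes, which gave 26 classes. Fibroblast-like (5565 and 5105 cells), immune-like (248 and 443) and endothelial-like cells (76 and 137) were present although the sort was set against CD140a, CD45 and CD31. Levels are CPM of the summed UMIs per class and mouse, with the SD over 2 mice, and no test was made between classes, since the clusters were made from all genes. Free RNA was not removed, and its part in the low levels was not tested.

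The class with the highest RNA level differed between the ligand genes, while other classes held more than 1 of them. Tgfb1 was highest in immune-like cells at 159.1 ± 2.00 CPM (157.7 and 160.5 in the mice), then in a cluster led by the immunoglobulin genes Igkc and Igha at 121.1 ± 28.5 and in endothelial-like cells at 82.2 ± 15.2. It was lowest in the class named adipocyte-like at 6.05 ± 1.54 and in fibroblast-like cells at 10.96 ± 1.80. That named class was led by Car3, Fgf10 and Far2 and held Col1a1 at 5923 CPM and Pdgfra at 273.8 CPM. An unnamed cluster led by Cfd, Car3 and Retn, with Adipoq among its leading genes, had 14.3 ± 14.3 CPM of Tgfb1. By class, Tgfb2 was highest in dermal papilla-like cells at 123.5 ± 42.04 CPM and in a cluster led by Myog and Pax7, genes of muscle precursors, at 98.8 ± 16.7, and these ranges overlapped. Fibroblast-like cells followed at 70.8 ± 10.96, and outer root sheath-like cells had 7.72 ± 0.777. With both mice pooled, fibroblast-like clusters ranged from 15.2 CPM (led by Cdkn1c and H19) to 141.0 CPM (led by Cdh4 and Hpgd). The dermal papilla-like cluster had 131.4 CPM when pooled in this way, so it was not the highest single cluster. Tgfb3 was highest in a cluster led by Csn3, Wfdc18 and Spp1 at 138.7 ± 3.31 CPM (136.4 and 141.1). This cluster was also led by the casein gene Csn1s1 and the lactalbumin gene Lalba. Its level of the epithelial gene Epcam was 1323 CPM. The class named mural and dermal sheath-like, led by Rgs5, Gm13889 and Myh11, followed at 59.4 ± 8.79, and the mouse ranges did not overlap. In a cluster led by Adamts18 and Col11a1, with Acta2 at 1494 CPM and Col1a1 at 5534 CPM, Tgfb3 was at 15.5 ± 2.04. Tgfb3 was at 29.2 ± 3.01 in the cluster led by Myog and Pax7, at 23.0 ± 3.45 in dermal papilla-like and at 4.07 ± 0.332 in outer root sheath-like cells. The cluster led by Csn3 and the mural and dermal sheath-like class also held Tgfb2, at 57.4 ± 9.46 and 57.3 ± 22.5 CPM.

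Of the receptor genes, Tgfbr2 was highest in fibroblast-like cells at 548.3 ± 221.6 CPM, with 705.0 in mouse 1 and 391.6 in mouse 2. It was higher in mouse 1 than in mouse 2 in each of the 8 fibroblast-like clusters. Cells of the mice were spread unevenly over these clusters. The cluster led by Adamts16 and Pi16 (1374 and 84 cells) had 1085 and 636.4 CPM, the cluster led by Isg15 and Cxcl13 (278 and 2005 cells) had 839.3 and 491.9 CPM, and the cluster led by Cdkn1c and H19 (720 and 1031 cells) had 308.3 and 251.3 CPM. Tgfbr2 was at 363.3 ± 5.79 CPM in a cluster led by Adamts18 and Col11a1, and at 34.4 ± 10.5 CPM in outer root sheath-like cells. Tgfbr1 was more even, at 273.5 ± 48.4 CPM in a cluster led by St6galnac3 and Gramd1b, 246.0 ± 59.7 in dermal papilla-like, 194.0 ± 1.86 in a cluster led by Grm7 and Sox5 and 66.0 ± 11.2 in outer root sheath-like cells. The first pair overlapped, and the lowest class was suprabasal epidermis and infundibulum-like at 33.2 ± 6.86.

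Ltbp1 was highest in dermal papilla-like cells at 1176 ± 160.0 CPM, with 1062 and 1289 in the mice. The next class, the one named adipocyte-like and led by Car3, Fgf10 and Far2, had 261.9 ± 46.5. The ranges of these 2 classes over the mice were far apart. The unnamed cluster led by Cfd, Car3 and Retn had 118.9 ± 10.5 CPM. Ltbp1 was lowest in inner root sheath-like cells at 11.7 ± 1.23 CPM and hair shaft-like cells at 11.9 ± 2.67 CPM. Ltbp2 was low everywhere, with 23.8 ± 5.87 CPM in a cluster led by Il17b, 18.3 ± 6.42 in dermal papilla-like and 15.9 ± 1.54 in outer root sheath-like cells. Neighbors in this order overlapped over the mice. It was counted with 0 UMIs in immune-like cells, in Schwann-like cells and in the cluster led by Igkc. By class, Tgfbi was highest in immune-like cells at 132.8 ± 6.70 CPM and in suprabasal epidermis and infundibulum-like cells at 94.9 ± 32.1. It was at 50.1 ± 8.86 in fibroblast-like and 19.0 ± 5.70 in outer root sheath-like cells. With both mice pooled, the immune-like clusters had 147.2 CPM (led by Lyz2 and Cd74) and 6.43 CPM from 3 UMIs (led by Ccl5 and Gzma). A fibroblast-like cluster led by Cdh4 and Hpgd had 142.6 CPM, and an outer root sheath-like cluster led by Col17a1 and Aqp3 had 192.8 CPM. Skil was highest in the cluster led by Csn3 at 143.6 ± 21.4 CPM, followed by the cluster led by Adamts18 at 102.9 ± 9.69 and hair shaft medulla-like cells at 91.2 ± 19.0, and no class was below 9.80 CPM in either mouse.

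**Figure D5:**
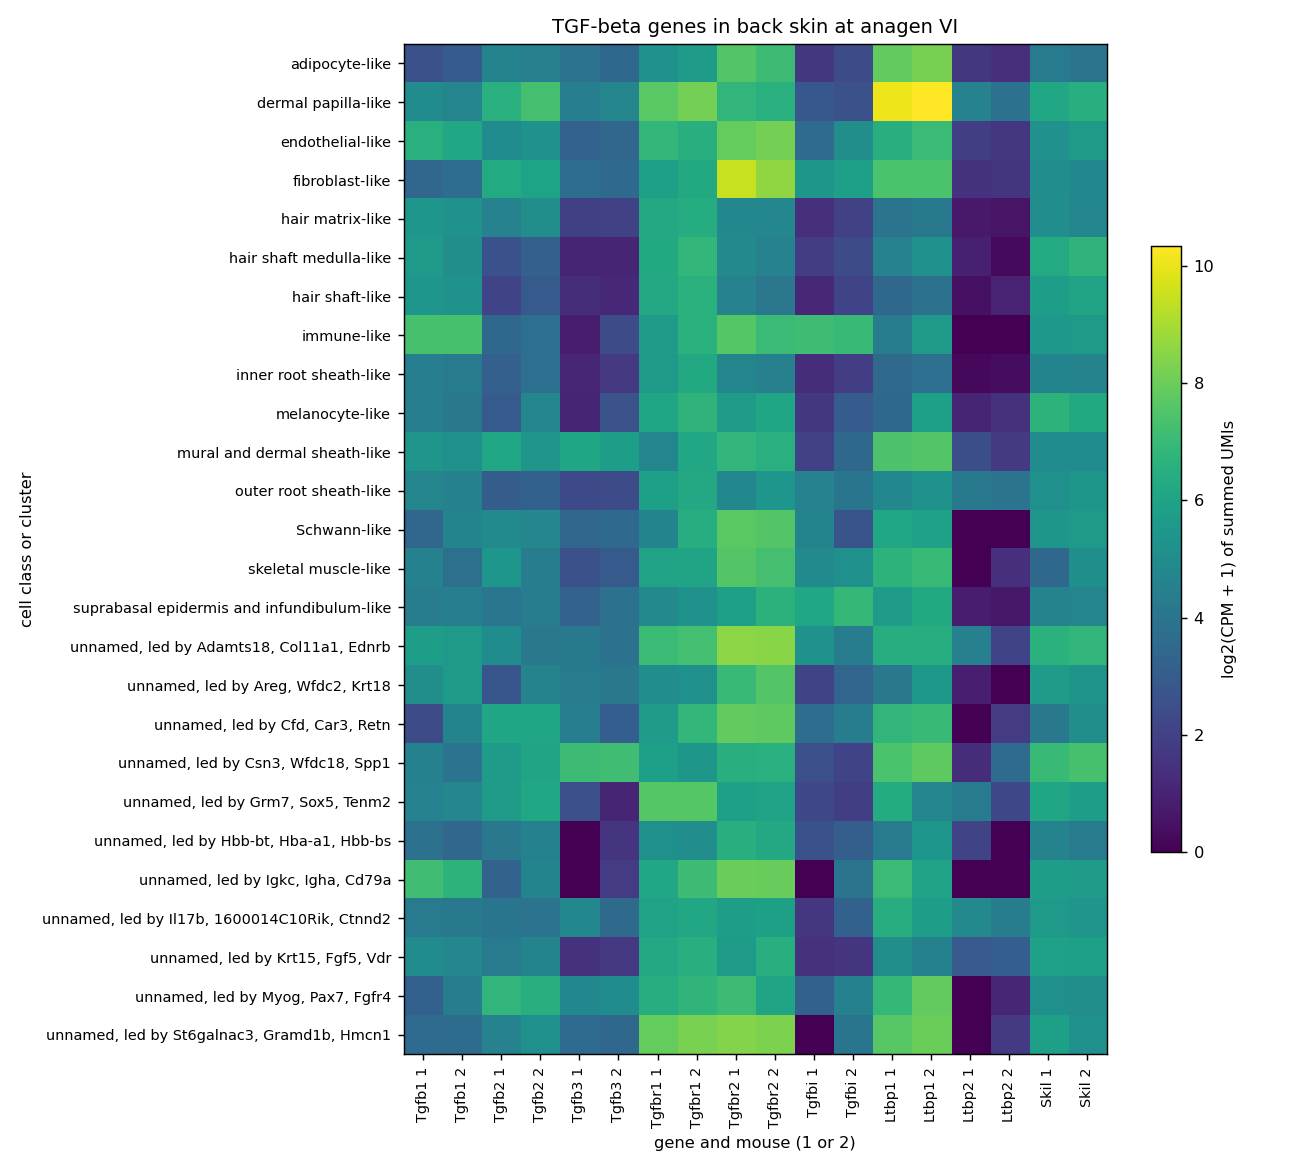
Level of the 9 TGF-beta genes in back skin at AnaVI by cell class (rows) and by gene and mouse (columns), as log2(CPM + 1) of summed UMIs on the color scale. Ltbp1 in dermal papilla-like cells (1062 and 1289 CPM) and Tgfbr2 in fibroblast-like cells (705.0 and 391.6 CPM) are the brightest cells.

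Within the outer root sheath-like class, a small cluster stood apart, which was singled out after its values were seen. It was led by Col17a1, Aqp3 and Krt15 and held 85 and 57 cells. Tgfbi was at 215.6 and 168.7 CPM there (104 and 77 UMIs) and at 3.46 to 7.70 CPM in the 3 other clusters of the class. Ltbp1 was at 151.3 and 256.3 CPM, against 10.97 to 47.6 CPM, and Tgfb2 at 49.7 and 59.1 CPM, against 1.71 to 14.6 CPM. In both mice these 3 genes were above every other cluster of the class. Ltbp2 differed between mice in this cluster (43.5 and 4.38 CPM, from 21 and 2 UMIs). In the other clusters it was at 20.3 and 17.0 CPM where Scrg1 and Kcnb2 led, at 32.9 and 27.2 CPM where Kcnb2 and Chn2 led, and at 0.577 and 0.547 CPM (1 UMI each) where Pthlh and Krt6a led. A separate unnamed cluster led by Krt15, Fgf5 and Vdr (396 and 365 cells) had 6.92 ± 0.737 CPM of Ltbp2 and 1.89 ± 0.201 CPM of Tgfbi.

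The genes with the most similar pattern over the 52 sums of class and mouse were found by Pearson's r of log2(CPM + 10) among 9261 genes. They were Il2rg (r = 0.789) and Inpp5d (0.785) for Tgfb1, Ltbp1 (0.717) for Tgfb2, and Khdrbs3 (0.816) and Igfbp5 (0.792) for Tgfb3. For the receptors they were 2210408I21Rik (0.824) and Scai (0.804) for Tgfbr1 and Fbn1 (0.897) and Add3 (0.886) for Tgfbr2. B3galt1 (0.865) and Plscr4 (0.841) followed Ltbp1, Pappa (0.679) and Nrg1 (0.665) followed Ltbp2, Il6ra (0.731) and Il1r2 (0.709) followed Tgfbi, and Pmepa1 (0.677) and Pde4d (0.644) followed Skil. The sums share 2 mice, differ in depth and are not independent, so these values describe likeness and carry no test.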

How the data were processed

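RNA-seq of 8 libraries and single cell RNA-sequencing of 4 wild-type libraries were used. ATAC-seq and CUT&RUN samples were not used here. The authors deposited estimated counts per gene from Salmon 1.4.0 on mm10, rounded here to whole numbers, and a second table of normalized counts, a signal scaled by the authors that was used only for limma. The authors also deposited UMI counts per barcode from Cell Ranger 7.0.1 (submitters' processing notes), before removal of free RNA or doublets, and hashtag counts. Groups follow the labels.

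RNA-seq counts were tested with edgeR 4.0.16 (quasi-likelihood, TMM, filterByExpr, 1 mean per group, R 4.3.3), called at adjusted p under 0.05. Alternatives were DESeq2 1.42.0, limma 3.58.1, other scaling and filters, leaving out each library, and the mouse as a replicate block. Same-numbered libraries of a genotype came from the same labelled mouse, and deviations correlated over 15965 genes at 0.135 (wild-type) and -0.000821 (Rxra cKO). Hashtags were called with Seurat 5.3.0, and UMI sums per mouse and medium with at least 5 cells were tested with edgeR, where a call needed an adjusted p below 0.01 and a log2 fold change beyond 1 or -1. Back skin cells with at least 500 genes, 1000 UMIs and at most 10% mitochondrial UMIs were clustered with scanpy 1.11.5 (2000 variable genes, 30 components, 15 neighbors, resolution 1), after removal of called doublets (5.76% and 2.21%). Levels needed at least 20 cells. Intervals (exact Poisson, 95%) and floors of 3 counts cover counting error only. The scripts were tested on simulated data.

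The members and pathway lists were chosen with earlier results of these data known. Besides the members, the text names, for each pathway list and comparison, the called genes with the highest and lowest log2 fold change at a mean of at least 1 CPM, and for each member the 2 genes of most similar pattern. A few genes that this rule selects are not reported here. A description of the ligand proteins had been planned and was not made. RefSeq promoter windows were used for 7 of the 9 members.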

Additional observations from a re-analysis of the deposited data

Results flagged for a closer look

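The medium effect differed between the genotypes for 5 TGF-beta genes by the test of the difference itself (edgeR, Rxra cKO minus wild-type, log2 scale). The differences were 3.91 for Tgfb2, 0.97 for Tgfbr2 and 0.77 for Tgfbi, which were higher in Rxra cKO, and -0.64 for Tgfb3 and -2.40 for Ltbp2, which were lower. Of all genes tested, 24.6% passed the same test (13.3% higher and 11.3% lower in Rxra cKO). The difference for Tgfb3 was not called by DESeq2 (adjusted p = 0.0879), and limma called neither Tgfb3 nor Ltbp2. Libraries of the 2 media did not overlap in either genotype for the 5 TGF-beta genes, except for Tgfbr2 in wild-type. The share of all genes without such overlap is not given here, so this is a description only. With 2 libraries per group, no search for single outlying libraries was possible.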

How the results depend on the processing

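With the mouse as a replicate block, the number of TGF-beta genes called was 8 in wild-type, 9 in Rxra cKO, 5 for the difference of medium effects and 0 in the cultured cell sums, as without it. It ended the call of Acvr2b in Rxra cKO (log2 fold change 0.91, adjusted p = 0.0587) and of Cd109 for the difference (0.48, adjusted p = 0.0572). Comparisons of genotypes could not be fitted with this block, since each mouse has 1 genotype. Under the threshold of the culture sums (adjusted p 0.01, log2 fold change beyond 1 or -1), the counts were 5 in wild-type, 4 in Rxra cKO, 3 between genotypes in FBS, 4 in atRA+PKCi and 2 for the difference. At adjusted p under 0.05, limma called 3 members for the difference with either pseudocount (1 or 0.5), against 5 by edgeR. The share of all genes called under each of these other settings is not given here. The counts of this paragraph thus show how the calls held across settings and do not set the members against other genes. For BMP2/4 against B-27, 1 member (Skil) was called at adjusted p under 0.05 alone, without a filter, and with up to 20% mitochondrial UMIs. With each library left out in turn, the counts ranged from 8 to 8 in wild-type, 8 to 9 in Rxra cKO, 6 to 6 between genotypes in FBS, 4 to 7 in atRA+PKCi, 4 to 6 for the difference, 0 to 1 for BMP2/4 against B-27 and 0 to 0 for the other 2 comparisons of cultured cells. Directions turned with a library left out only among values that were not called. These were Tgfbr2 in wild-type (-0.0896 to 0.0622), Ltbp1 (-0.19 to 0.12) and Skil (-0.0141 to 0.13) between genotypes in FBS, Tgfbr1 for the difference (-0.12 to 0.00195), and Rxra between genotypes in atRA+PKCi (-0.00793 to 0.0650) and in wild-type (-0.0453 to 0.25). In BMP2/4 against B-27 they were Ltbp1 (-0.35 to 0.27, and 0.0354 without a filter), Tgfb2 (-0.0437 to 0.33) and Tgfbr2 (-0.67 to 0.21, and 0.0907 without a filter). The highest class levels in back skin moved by more than the spread between mice for Tgfb1 (167.2 CPM with a stricter cell filter, 145.4 CPM with doublets kept), Tgfb3 (133.5 CPM) and Tgfbi (119.9 CPM) with doublets kept, and Ltbp2 (29.7 CPM at resolution 2, in another unnamed cluster). The cause was not tested. Depth limits Ltbp2 and Itgb8 in wild-type FBS and the culture sums of 5 to 10 cells.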
